A study of Mus musculus with 20 samples.

Results

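Matrix metalloproteinases (MMPs), disintegrin metalloproteases (ADAMs and ADAMTSs) and the tissue inhibitors of metalloproteinases (TIMPs) are described here across cells sorted from mouse tumours. Members were taken from the mouse genes whose symbol is Mmp, Timp, Adam or Adamts followed by a number with an optional letter, and 78 of them, out of 55260 genes, are described. They comprise 22 MMPs, 4 TIMPs, 33 ADAMs and 19 ADAMTSs. RNA had been sequenced from 4 populations sorted from MC38-OVA tumours, a mouse colon carcinoma line that expresses ovalbumin, grown in C57BL/6 mice. The populations were CD8 T cells, CD11c+CD11b- and CD11c+CD11b+ cells (both called dendritic cells in the labels) and CD11c-CD11b+ cells (called myeloid cells there). Each came from 5 treatments: radiotherapy (RT) plus both antibodies, RT with anti-PD-1, RT with anti-SIRPa, RT alone, and no treatment (sham irradiation). RT was a focal dose of 8 Gy on day 12. Anti-SIRPa, against the myeloid receptor that restrains phagocytosis, was dosed at 400 µg on days 12, 14 and 16. Anti-PD-1, against an inhibitory receptor of T cells, was dosed at 250 µg on days 12 and 15. Cells were harvested on day 17 from 10 pooled tumours per treatment, 1 tumour per mouse, so the 4 populations of a treatment share a pool, and p-values below measure only the spread between such pools. Each pool had a different treatment, so no p-value measures a spread between pools of like treatment. The labels used here state neither the age nor the sex of the mice. Each of the 20 groups was 1 library, and no comparison of 2 single groups was tested.

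MMPs are zinc endopeptidases that are made as latent precursors and cut collagens, elastin, proteoglycans and many cell surface proteins. ADAMs are membrane-bound and shed growth factors, cytokines and adhesion molecules from the cell surface, and ADAMTSs are secreted and act on proteoglycans, procollagens and microfibrils. TIMPs bind the active site of these enzymes. In tumours much of this repertoire is known to come from macrophages and from fibroblasts rather than from the carcinoma cells.

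Library totals ran from 21522743 to 35696925 estimated counts. Levels are normalised CPM, in which counts are divided by library sizes scaled by TMM. The library labelled untreated CD8 T went against its label: its 8 CD8 T markers summed to 184 CPM, against 2704 to 4191 CPM in the irradiated CD8 T libraries, and its 12 macrophage markers to 18866 CPM against 1222 to 2753 CPM. It was therefore left out of every test except an alternative fit given at the end, and no irradiation test was made in CD8 T cells. The 12 macrophage markers summed to 553 to 1147 CPM in irradiated CD11c+CD11b- libraries, 11703 to 14538 CPM in irradiated CD11c+CD11b+ libraries and 4465 to 8545 CPM in irradiated CD11c-CD11b+ libraries, so the dendritic cell label of the CD11c+CD11b+ fraction stood beside the largest macrophage signal of the irradiated libraries. The CD11c+CD11b- libraries carried markers of several cell types, among them cross-presenting dendritic cells (4 cDC1 markers, 137 to 395 CPM irradiated and 40.5 CPM untreated), mature dendritic cells (3 markers, 614 to 1394 CPM irradiated and 352 CPM untreated) and NK cells (4 markers, 1479 to 2004 CPM irradiated and 1051 CPM untreated). Fibroblast markers were counted in all libraries. Summed over 12 collagen, matrix and receptor genes they came, in the order RT with both antibodies, RT with anti-PD-1, RT with anti-SIRPa and RT alone, to 915, 644, 1687 and 1326 CPM in CD8 T libraries, and to 3198 CPM in the library labelled untreated CD8 T. In the same order they were 824, 684, 2563 and 1481 CPM in CD11c+CD11b- libraries and 8721 CPM in the untreated one. In CD11c+CD11b+ libraries they were 1487, 1140.5, 2834 and 1831 CPM and 6589 CPM in the untreated one, and in CD11c-CD11b+ libraries 2174, 2370.1, 4604 and 3035 CPM and 8933 CPM in the untreated one. Fibroblast markers were thus highest in the untreated library of each of the 3 myeloid populations, and among irradiated libraries lowest in those given anti-PD-1 in all 4 populations. Wherever 4 irradiated values are listed below, they stand in that same order.

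Of the MMPs described, 9 with a RefSeq promoter (GRCm38.p6) lie in 1 cluster on chromosome 9, at 7272514 to 7699585. The promoters of 3 of them are shown, with that of Adam19. Mmp12 and Mmp13 marked the CD11b+ libraries and Adam19 the CD8 T libraries, while Mmp3 is shown only for its motif and level. The AP-1 motif TGANTCA, which reads the same on both strands, was searched in the 250 bases before and 50 bases after each start site. It was found in 8 of the 9 cluster genes (Mmp3, Mmp7, Mmp10, Mmp12, Mmp13, Mmp20 and both Mmp1 genes, not Mmp27) and in 5 of the 39 other members with a promoter. The cluster genes are neighbours of 1 family, so their matches cannot be taken as independent of each other. Mmp7, Mmp20 and both Mmp1 genes stayed under 1 CPM in every library. Of all 32851 promoters, 7.81% held the motif, and of the 27025 genes with a promoter, 8.97%. Its first base lay 35 bases before the start site of Mmp13, 44 before the second of the 2 Mmp12 start sites, 46 before that of Mmp3 and 131 before the second of the 3 Adam19 start sites. These 4 are the members at 20 CPM or more that hold the motif, out of 17 such members with a promoter. The windows are chr9:7272264-7272563, chr9:7347124-7347423, chr9:7445572-7445871 and chr11:46055734-46056033, all on the + strand. They are printed 5′ to 3′ with the motif in capitals.
Mmp13: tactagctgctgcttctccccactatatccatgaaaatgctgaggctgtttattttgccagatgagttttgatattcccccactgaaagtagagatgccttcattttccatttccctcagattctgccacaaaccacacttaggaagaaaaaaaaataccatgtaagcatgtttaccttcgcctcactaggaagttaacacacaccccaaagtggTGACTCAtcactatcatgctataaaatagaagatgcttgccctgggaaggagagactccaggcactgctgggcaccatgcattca
Mmp12: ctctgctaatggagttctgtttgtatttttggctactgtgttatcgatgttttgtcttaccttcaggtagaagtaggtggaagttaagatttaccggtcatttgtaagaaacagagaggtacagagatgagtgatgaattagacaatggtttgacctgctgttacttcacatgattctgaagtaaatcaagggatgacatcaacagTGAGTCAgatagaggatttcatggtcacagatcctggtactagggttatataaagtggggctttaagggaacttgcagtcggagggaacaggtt
Mmp3: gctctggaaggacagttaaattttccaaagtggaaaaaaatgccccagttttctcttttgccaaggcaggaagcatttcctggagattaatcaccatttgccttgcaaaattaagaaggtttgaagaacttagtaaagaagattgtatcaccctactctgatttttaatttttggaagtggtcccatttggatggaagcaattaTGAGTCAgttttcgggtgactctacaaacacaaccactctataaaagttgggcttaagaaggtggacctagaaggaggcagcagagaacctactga
Adam19: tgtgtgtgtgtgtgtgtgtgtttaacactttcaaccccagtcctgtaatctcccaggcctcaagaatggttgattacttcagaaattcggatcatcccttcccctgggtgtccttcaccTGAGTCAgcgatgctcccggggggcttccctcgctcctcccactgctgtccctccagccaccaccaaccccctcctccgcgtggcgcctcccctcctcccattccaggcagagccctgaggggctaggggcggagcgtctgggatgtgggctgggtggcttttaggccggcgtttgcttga
A match is a description of these letters only, and no binding was measured here.

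Of the 78 members, 27 reached 20 CPM in at least 1 library, namely 10 MMPs, 2 TIMPs, 8 ADAMs and 7 ADAMTSs. Another 17 peaked between 1 and 20 CPM, 19 stayed under 1 CPM in every library, and 15 had no count in any library. The 15 were 12 ADAMs and 3 ADAMTSs, and a count of 0 allows up to 0.133 CPM in the smallest library, at 3 counts, which covers counting error only. Per transcript length, Mmp14 and Adam8 led the CD11b+ populations. In irradiated CD11c+CD11b+ libraries Mmp14 stood at 455 ± 32.3 TPM, Adam8 at 428 ± 128 TPM and Mmp12 at 155 ± 82.6 TPM (mean ± SD, n = 4 pools, each under a different treatment). In irradiated CD11c-CD11b+ libraries Adam8 stood at 525 ± 112 TPM, Mmp14 at 365 ± 17.4 TPM and Timp2 at 129.6 ± 43.2 TPM. Irradiated CD11c+CD11b- libraries had Adam8 at 242 ± 41.9 TPM, Mmp14 at 100.2 ± 40.6 TPM and Adamts14 at 69.6 ± 7.75 TPM, the 3 highest members there. Irradiated CD8 T libraries had Adam8 at 168 ± 10.2 TPM, Mmp14 at 125 ± 47.5 TPM and Adam19 at 105 ± 18.6 TPM.

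**Figure D1:**
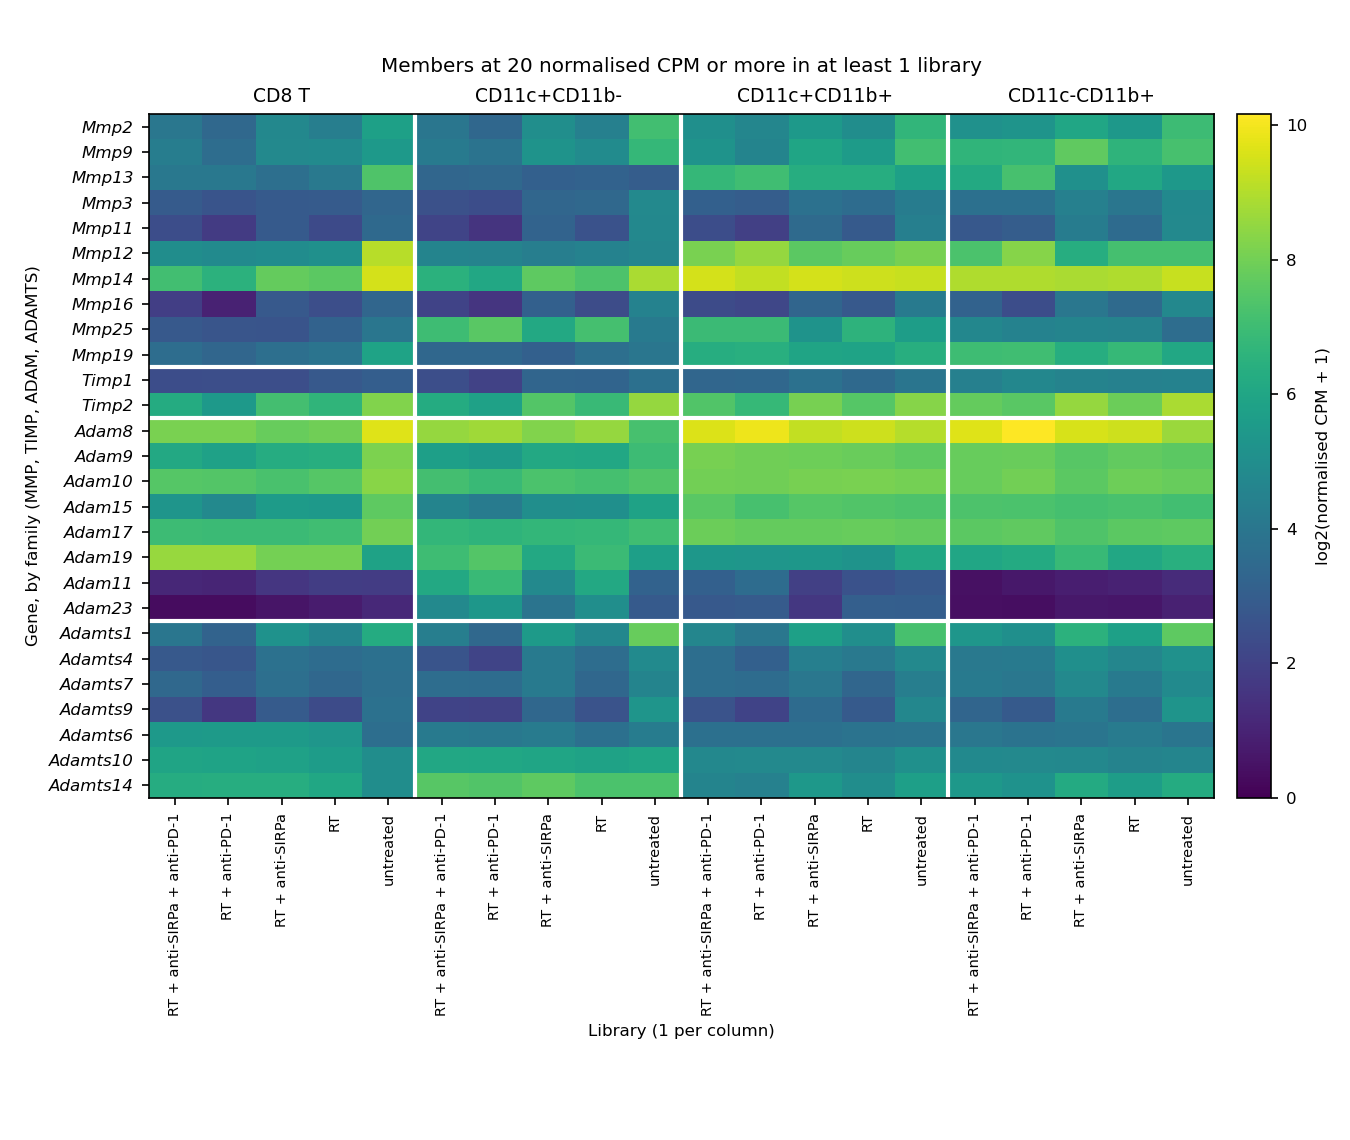
Heat map of log2(normalised CPM + 1) for the 27 members at 20 CPM or more in at least 1 library (rows, by family) in the 20 libraries (columns, by population and treatment). Mmp12, Mmp13, Mmp14 and Mmp19 are bright in both CD11b+ blocks and in the library labelled untreated CD8 T, Adam11 and Adam23 are brightest in irradiated CD11c+CD11b- libraries, and Adam19 in irradiated CD8 T libraries.

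Summed per length, the 22 MMPs reached 701 to 981 TPM in irradiated CD11c+CD11b+ libraries and 713 to 918 TPM in irradiated CD11c-CD11b+ libraries. They summed to 210.2 to 271 TPM in irradiated CD11c+CD11b- and 137 to 281 TPM in irradiated CD8 T libraries. The ratio of summed MMP to summed TIMP RNA was 12.2 in CD11c+CD11b+ cells of the RT with anti-PD-1 pool, 7.14 in the RT pool and 4.80 in the untreated pool. Among the 4 irradiated libraries of every population this ratio was highest with RT and anti-PD-1 and lowest with RT and anti-SIRPa. Under each irradiated treatment CD11c+CD11b+ cells had the highest ratio of the populations. Timp2 gave most of the TIMP sum, with 57.1 of 80.2 TPM in CD11c+CD11b+ cells of the RT with anti-PD-1 pool. Among irradiated CD11c+CD11b+ libraries Timp2 had the order of the fibroblast marker sum, whose part in the ratio was not tested. No test was made of these sums.

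The 3 comparisons between populations asked which of the sorted cells carried each member, with the pool as a term in edgeR's quasi-likelihood test and Benjamini-Hochberg adjustment over all genes tested. The spread in them is how a difference varied from pool to pool, not a spread between pools of like treatment. The first set CD11c+CD11b- against CD11c+CD11b+ cells (the CD11c+ fractions), where of 45 members tested, 5 were higher and 14 lower, beside 23.1% of all genes higher and 22.3% lower. The median log2 difference of the members tested was -0.30, against 0.00 over all genes. The second set CD11c+CD11b+ against CD11c-CD11b+ cells (the CD11b+ fractions), where of 47 members tested 5 were higher and 20 lower, beside 12% of all genes higher and 12.9% lower, with a median of -0.49 against -0.01. Of 50 members tested in irradiated CD8 T against the mean of the irradiated myeloid libraries, 3 were higher and 33 lower, beside 25.1% of all genes higher and 26.1% lower. The median there was -0.81 against 0.00, and it was the same with Adamts13 and Adam3, which had no count in the irradiated CD8 T libraries, set to their bound at 3 counts over the group. Below, lower or higher in CD8 T than in myeloid cells means against that mean, not against each myeloid population. Mmp12, Mmp13, Mmp14, Adam9, Adam15 and Adam17 were lower by it, yet lay above the CD11c+CD11b- library in every irradiated pool. Without the pool term, 5 members passed between CD11c+CD11b+ and CD11c-CD11b+ cells (Timp1, Mmp25, Adam11, Adam19 and Adam23). Markers of other cell types differed in the same comparisons. Of 12 macrophage markers 12 were lower in CD11b- than CD11b+ cells of the CD11c+ fractions (median -3.79), as were all 5 neutrophil markers tested (median -4.38) and 1 of 12 fibroblast markers. Between the CD11b+ fractions 11 of 12 macrophage markers were higher (median 0.69), while 11 of 12 fibroblast markers (median -0.69) and all 8 neutrophil markers tested (median -3.01) were lower. For CD8 T against myeloid cells all 12 fibroblast (median -0.80) and all 12 macrophage markers (median -1.03) were lower, and of 8 neutrophil markers tested 1 was higher and 7 were lower. The part of these cells in the members' differences was not tested. In bulk libraries, fewer cells of a type and less RNA per cell cannot be told apart.

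Among the irradiated libraries, Mmp12, Mmp13, Mmp14 and Mmp19 were highest in CD11b+ cells. Mmp12, the macrophage elastase (chromosome 9, 7344381 to 7369499, + strand), had the largest difference of the MMPs between the CD11c+ fractions. Mmp12 was at 30.6, 28.2, 30.1 and 33.1 CPM in the irradiated CD8 T libraries and 530.3 CPM in the library labelled untreated CD8 T, and at 23.03, 22.3, 19.2 and 21.8 CPM in irradiated and 24.6 CPM in untreated CD11c+CD11b- libraries. For Mmp12 the irradiated CD11c+CD11b+ libraries had 278, 372, 194 and 224 CPM and the untreated one 272 CPM, and the irradiated CD11c-CD11b+ libraries had 154, 315, 79.7 and 143 CPM and the untreated one 141 CPM. All 5 CD11c+CD11b- libraries lay below all CD11c+CD11b+ libraries (log2 difference -3.57 ± 0.12, adjusted p = 5.89e-06 by edgeR). Between CD11c+CD11b+ and CD11c-CD11b+ libraries the groups overlapped, yet Mmp12 was higher within each pool (log2 difference 0.78 ± 0.13, adjusted p = 0.00301 by edgeR). Irradiated CD8 T libraries were lower than the myeloid mean (log2 difference -1.64 ± 0.21, adjusted p = 2.24e-05 by edgeR) though above the CD11c+CD11b- libraries, while the library labelled untreated CD8 T was above every other library, as its macrophage markers were. The Mmp12 gene overlaps Mmp1b on the opposite strand, and whether counting used strand was not stated, so reads of such overlapping genes, named below, cannot be told apart; Mmp1b was under 1 CPM throughout.

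Mmp13, collagenase 3 and the main fibrillar collagenase of the mouse (chromosome 9, 7272514 to 7283331, + strand), followed a like order. Mmp13 was at 15.7, 15.8, 12.1 and 16.3 CPM in the irradiated CD8 T libraries and 166 CPM in the library labelled untreated CD8 T, and at 9.10, 9.83, 7.61 and 8.14 CPM in irradiated and 7.05 CPM in untreated CD11c+CD11b- libraries. For Mmp13 the irradiated CD11c+CD11b+ libraries had 108, 132, 78.8 and 79.5 CPM and the untreated one 54.5 CPM, and the irradiated CD11c-CD11b+ libraries had 71.3, 147, 33.8 and 66.6 CPM and the untreated one 42.3 CPM. All CD11c+CD11b- libraries lay below all CD11c+CD11b+ libraries (log2 difference -3.39 ± 0.12, adjusted p = 5.89e-06 by edgeR), and irradiated CD8 T libraries were below the myeloid mean (log2 difference -1.40 ± 0.20, adjusted p = 4.16e-05 by edgeR). CD11c+CD11b+ and CD11c-CD11b+ libraries overlapped, and their difference did not pass (log2 difference 0.44 ± 0.16, adjusted p = 0.0813 by edgeR). In both CD11b+ populations the library of RT with anti-PD-1 held the highest value of Mmp12 and of Mmp13.

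Mmp14, the membrane-type enzyme that activates pro-MMP2 at the cell surface, was the MMP with the highest mean per length in the irradiated libraries of each population. Mmp14 was at 136, 92.4, 213 and 192 CPM in the irradiated CD8 T libraries and 736 CPM in the library labelled untreated CD8 T, and at 89.3, 67.6, 199.8 and 159 CPM in irradiated and 473 CPM in untreated CD11c+CD11b- libraries. For Mmp14 the irradiated CD11c+CD11b+ libraries had 726, 604, 723 and 664 CPM and the untreated one 637 CPM, and the irradiated CD11c-CD11b+ libraries had 499, 500.4, 467 and 496 CPM and the untreated one 639 CPM. The CD11c+CD11b- libraries were all below the CD11c+CD11b+ ones (log2 difference -2.13 ± 0.40, adjusted p = 0.00411 by edgeR), and their untreated library was the highest of them. CD11c+CD11b+ cells were slightly above CD11c-CD11b+ cells (log2 difference 0.36 ± 0.10, adjusted p = 0.0276 by edgeR), but this call was lost when the RT, the RT with anti-SIRPa or the pool of both antibodies was left out. Irradiated CD8 T cells were lower than the myeloid mean (log2 difference -1.20 ± 0.20, adjusted p = 0.000164 by edgeR). Mmp14 stood in those CD8 T libraries beside the macrophage and fibroblast markers given above. Over the CD11c+CD11b- libraries it had the same order as their fibroblast marker sum. The part of either cell type in it was not tested.

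Mmp19, which cuts basement membrane proteins, was highest in irradiated CD11c-CD11b+ libraries. Mmp19 was at 11.5, 9.32, 12.1 and 14.2 CPM in the irradiated CD8 T libraries and 58.1 CPM in the library labelled untreated CD8 T, and at 9.51, 9.45, 7.58 and 12.1 CPM in irradiated and 14.9 CPM in untreated CD11c+CD11b- libraries. For Mmp19 the irradiated CD11c+CD11b+ libraries had 79.3, 84.8, 60.5 and 58.7 CPM and the untreated one 81.2 CPM, and the irradiated CD11c-CD11b+ libraries had 129, 133, 79.8 and 110.0 CPM and the untreated one 66.7 CPM. Its level was lower in all CD11c+CD11b- than in all CD11c+CD11b+ libraries (log2 difference -2.79 ± 0.15, adjusted p = 1.84e-05 by edgeR). The CD11c+CD11b+ and CD11c-CD11b+ libraries overlapped, and the lower level in the first (log2 difference -0.49 ± 0.15, adjusted p = 0.0404 by edgeR) did not pass when any one irradiated pool was left out. Against the myeloid mean it was lower in irradiated CD8 T cells (log2 difference -1.85 ± 0.15, adjusted p = 5.36e-07 by edgeR). Mmp19 overlaps Tmem198b on the opposite strand.

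**Figure D2:**
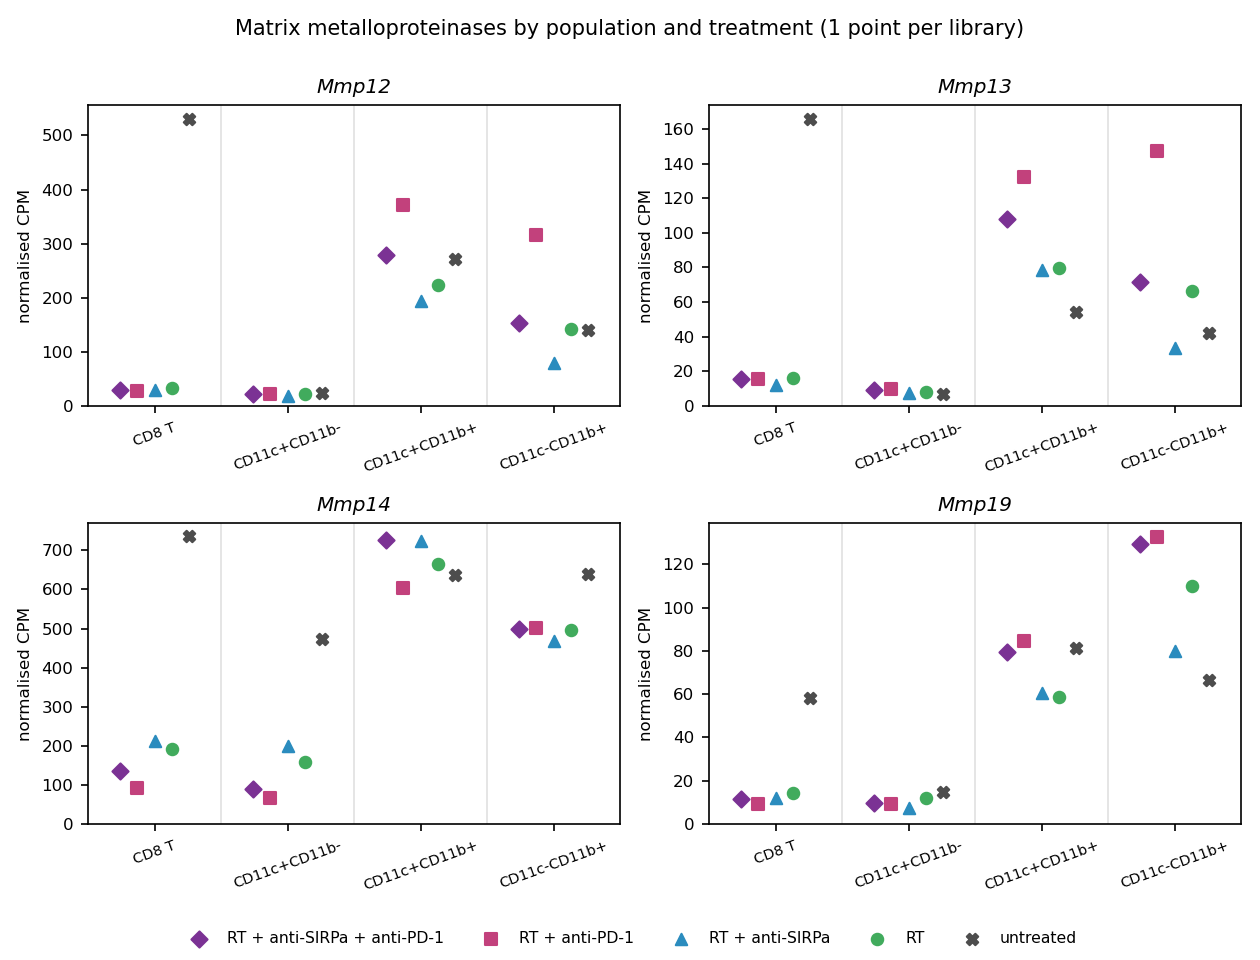
Normalised CPM (y axis, from 0) of Mmp12, Mmp13, Mmp14 and Mmp19 in each population (x axis), with 1 point per library coloured by treatment. The CD11c+CD11b- points sit below all CD11c+CD11b+ points in all 4 panels, and the library labelled untreated CD8 T, at 530.3 CPM of Mmp12, stands far above the irradiated CD8 T libraries.

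The gelatinases cut denatured and basement membrane collagen. Mmp2, gelatinase A, is known as a product of fibroblasts. Mmp2 was at 15.2, 9.90, 25.6 and 19.3 CPM in the irradiated CD8 T libraries and 53.4 CPM in the library labelled untreated CD8 T, and at 14.7, 9.62, 31.7 and 20.4 CPM in irradiated and 133 CPM in untreated CD11c+CD11b- libraries. For Mmp2 the irradiated CD11c+CD11b+ libraries had 32.1, 24.3, 43.5 and 30.8 CPM and the untreated one 101 CPM, and the irradiated CD11c-CD11b+ libraries had 34.1, 36.9, 64.03 and 42.1 CPM and the untreated one 123 CPM. In each of the 3 myeloid populations the untreated library was the highest, and among irradiated libraries RT with anti-SIRPa was the highest in all 4 populations. Mmp2 was lower in CD11c+ than CD11c- cells of the CD11b+ fractions within pools (log2 difference -0.41 ± 0.08, adjusted p = 0.0085 by edgeR), though the groups overlapped, and lower in irradiated CD8 T than in myeloid cells (log2 difference -0.82 ± 0.13, adjusted p = 0.000116 by edgeR). No difference passed between CD11c+CD11b- and CD11c+CD11b+ cells (log2 difference -0.61 ± 0.24, adjusted p = 0.0705 by edgeR).

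Mmp9, gelatinase B, is made by fibroblasts and by neutrophils and macrophages. Mmp9 was at 18.9, 11.2, 26.5 and 28.03 CPM in the irradiated CD8 T libraries and 43.96 CPM in the library labelled untreated CD8 T, and at 16.9, 13.5, 36.1 and 28.97 CPM in irradiated and 109 CPM in untreated CD11c+CD11b- libraries. For Mmp9 the irradiated CD11c+CD11b+ libraries had 36.2, 23.1, 61.8 and 46.2 CPM and the untreated one 135 CPM, and the irradiated CD11c-CD11b+ libraries had 98.5, 102, 203 and 96.2 CPM and the untreated one 147 CPM. The CD11c-CD11b+ libraries were high under every treatment, and these cells also held the largest neutrophil signal, at 555 to 3010.2 CPM over 9 markers when irradiated. Both Mmp9 and that signal were highest there with RT with anti-SIRPa, and its part in the level of Mmp9 was not tested. Mmp9 was lower in CD11b- than CD11b+ cells of the CD11c+ fractions (log2 difference -0.73 ± 0.11, adjusted p = 0.00132 by edgeR) and lower in CD11c+ than CD11c- cells of the CD11b+ fractions (log2 difference -1.30 ± 0.24, adjusted p = 0.00529 by edgeR). It was also lower in irradiated CD8 T cells than in the myeloid mean (log2 difference -1.24 ± 0.16, adjusted p = 2.20e-05 by edgeR). Without the pool term neither of the first 2 calls passed.

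The stromelysins cut proteoglycans and activate other MMPs. Mmp3 is stromelysin 1. Mmp3 was at 6.64, 5.20, 6.32 and 6.63 CPM in the irradiated CD8 T libraries and 9.32 CPM in the library labelled untreated CD8 T, and at 4.72, 4.26, 9.25 and 9.73 CPM in irradiated and 26.5 CPM in untreated CD11c+CD11b- libraries. For Mmp3 the irradiated CD11c+CD11b+ libraries had 7.56, 6.95, 12.95 and 11.03 CPM and the untreated one 18.4 CPM, and the irradiated CD11c-CD11b+ libraries had 12.7, 12.4, 20.3 and 14.8 CPM and the untreated one 27.05 CPM. Untreated libraries were again the highest in each myeloid population. It was lower in CD11c+ than CD11c- cells of the CD11b+ fractions (log2 difference -0.65 ± 0.09, adjusted p = 0.0015 by edgeR). Irradiated CD8 T cells were below the myeloid mean (log2 difference -0.65 ± 0.15, adjusted p = 0.00217 by edgeR), though above the CD11c+CD11b- library in both pools with anti-PD-1. Mmp10, stromelysin 2, peaked at 13.8 CPM in CD11c-CD11b+ cells of the RT with anti-SIRPa pool and differed in the same 2 comparisons (-0.85 and -0.63 log2), in the second not without the RT with anti-SIRPa or the combined pool.

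Mmp11, stromelysin 3, is processed by furin inside the cell and is known from fibroblasts around carcinomas. Mmp11 was at 4.25, 2.39, 6.41 and 3.80 CPM in the irradiated CD8 T libraries and 10.2 CPM in the library labelled untreated CD8 T, and at 3.28, 1.92, 8.43 and 4.85 CPM in irradiated and 25.8 CPM in untreated CD11c+CD11b- libraries. For Mmp11 the irradiated CD11c+CD11b+ libraries had 4.32, 2.83, 10.6 and 6.34 CPM and the untreated one 19.8 CPM, and the irradiated CD11c-CD11b+ libraries had 5.95, 7.08, 18.1 and 10.7 CPM and the untreated one 26.8 CPM. It too was highest without treatment in each myeloid population. It was lower in CD11c+ than CD11c- cells of the CD11b+ fractions (log2 difference -0.75 ± 0.14, adjusted p = 0.00484 by edgeR) and in irradiated CD8 T than in myeloid cells (log2 difference -0.58 ± 0.16, adjusted p = 0.00833 by edgeR), a call lost without the RT or the RT with anti-SIRPa pool. Mmp11 overlaps Chchd10 on the opposite strand.

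Among the other membrane-type enzymes, Mmp16 (MT3-MMP) ran with the same set. Mmp16 was at 2.68, 0.963, 6.07 and 4.47 CPM in the irradiated CD8 T libraries and 9.24 CPM in the library labelled untreated CD8 T, and at 3.10, 1.97, 7.69 and 4.14 CPM in irradiated and 22.05 CPM in untreated CD11c+CD11b- libraries. For Mmp16 the irradiated CD11c+CD11b+ libraries had 3.96, 3.46, 9.09 and 6.23 CPM and the untreated one 16.9 CPM, and the irradiated CD11c-CD11b+ libraries had 8.15, 4.31, 15.3 and 10.6 CPM and the untreated one 25.9 CPM. The untreated myeloid libraries were above the irradiated ones of their population. Mmp16 was lower in CD11c+ than CD11c- cells of the CD11b+ fractions (log2 difference -0.72 ± 0.12, adjusted p = 0.00323 by edgeR) and in irradiated CD8 T than in myeloid cells (log2 difference -0.89 ± 0.17, adjusted p = 0.000498 by edgeR).

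Mmp25, a membrane-anchored enzyme first known from leukocytes and also called leukolysin, was highest in irradiated CD11c+ libraries. Mmp25 was at 6.07, 5.47, 5.28 and 8.09 CPM in the irradiated CD8 T libraries and 14.8 CPM in the library labelled untreated CD8 T, and at 128, 189, 70.1 and 145 CPM in irradiated and 16.6 CPM in untreated CD11c+CD11b- libraries. For Mmp25 the irradiated CD11c+CD11b+ libraries had 119.9, 119.6, 36.6 and 95.1 CPM and the untreated one 50.1 CPM, and the irradiated CD11c-CD11b+ libraries had 25.4, 21.7, 22.7 and 22.2 CPM and the untreated one 11.4 CPM. It was higher in all CD11c+CD11b+ than in all CD11c-CD11b+ libraries (log2 difference 1.93 ± 0.23, adjusted p = 0.000815 by edgeR) and lower in all irradiated CD8 T than in all irradiated myeloid libraries (log2 difference -3.37 ± 0.26, adjusted p = 2.94e-07 by edgeR). The CD11c+CD11b- and CD11c+CD11b+ libraries overlapped and their mean difference did not pass (log2 difference 0.17 ± 0.35, adjusted p = 0.714 by edgeR). Untreated CD11c+CD11b- cells held less than untreated CD11c+CD11b+ cells. In both CD11c+ populations the irradiated library with anti-SIRPa alone was the lowest irradiated one, as it was for the 3 mature dendritic cell markers.

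Among the inhibitors, Timp2 was the highest in CPM. Besides blocking MMPs it helps MMP14 to activate pro-MMP2. Timp2 was at 74.8, 43.5, 139 and 99.7 CPM in the irradiated CD8 T libraries and 303 CPM in the library labelled untreated CD8 T, and at 76.1, 55.6, 171 and 118 CPM in irradiated and 377 CPM in untreated CD11c+CD11b- libraries. For Timp2 the irradiated CD11c+CD11b+ libraries had 166, 111, 272 and 180.5 CPM and the untreated one 315 CPM, and the irradiated CD11c-CD11b+ libraries had 216, 186, 377 and 234 CPM and the untreated one 468 CPM. Untreated libraries were the highest in each myeloid population, and RT with anti-SIRPa was the highest irradiated library in all 4 populations. Timp2 was lower in CD11c+ than CD11c- cells of the CD11b+ fractions (log2 difference -0.52 ± 0.07, adjusted p = 0.00162 by edgeR) and lower in irradiated CD8 T than in myeloid cells (log2 difference -0.97 ± 0.11, adjusted p = 5.58e-06 by edgeR). It was also lower in CD11b- than CD11b+ cells of the CD11c+ fractions (log2 difference -0.64 ± 0.19, adjusted p = 0.0285 by edgeR), a call lost when any one irradiated pool was left out.

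Timp1, the inducible inhibitor, differed most clearly between the CD11b+ fractions. Timp1 was at 4.21, 4.43, 4.41 and 6.19 CPM in the irradiated CD8 T libraries and 7.18 CPM in the library labelled untreated CD8 T, and at 4.38, 3.01, 9.03 and 8.58 CPM in irradiated and 12.4 CPM in untreated CD11c+CD11b- libraries. For Timp1 the irradiated CD11c+CD11b+ libraries had 9.14, 9.62, 12.9 and 10.2 CPM and the untreated one 14.5 CPM, and the irradiated CD11c-CD11b+ libraries had 20.3, 25.4, 22.5 and 21.3 CPM and the untreated one 21.4 CPM. All CD11c+CD11b+ libraries lay below all CD11c-CD11b+ libraries (log2 difference -1.0 ± 0.12, adjusted p = 0.000827 by edgeR). Its level was lower in irradiated CD8 T than in myeloid cells (log2 difference -1.24 ± 0.21, adjusted p = 0.000214 by edgeR). Its lower level in CD11b- than CD11b+ cells of the CD11c+ fractions (log2 difference -0.73 ± 0.22, adjusted p = 0.0334 by edgeR) was lost without the pool of RT with anti-PD-1, of RT with anti-SIRPa or of both antibodies. Timp3, which stays bound to matrix and also blocks ADAMs, never passed 6.47 CPM and was lower in CD11c+ than CD11c- cells of the CD11b+ fractions (-0.62 ± 0.18 (edgeR adjusted p = 0.0402)), a call lost without any one pool but that of both antibodies. Its difference between irradiated CD8 T and myeloid cells was -1.10 ± 0.26 (edgeR adjusted p = 0.0026). Timp4 was under 1 CPM in all libraries.

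Adam8, Adam9, Adam10, Adam15 and Adam17 were found in every population, and among irradiated libraries were highest in CD11b+ cells. Adam8, a leukocyte sheddase, was the highest of these 5 per length. Adam8 was at 275, 274, 225 and 251 CPM in the irradiated CD8 T libraries and 808 CPM in the library labelled untreated CD8 T, and at 375, 417, 302 and 375 CPM in irradiated and 146 CPM in untreated CD11c+CD11b- libraries. For Adam8 the irradiated CD11c+CD11b+ libraries had 793, 949.6, 607 and 663 CPM and the untreated one 522 CPM, and the irradiated CD11c-CD11b+ libraries had 820.2, 1147, 741 and 679.6 CPM and the untreated one 394 CPM. All CD11c+CD11b- libraries were below all CD11c+CD11b+ libraries (log2 difference -1.19 ± 0.15, adjusted p = 0.00067 by edgeR), and all irradiated CD8 T libraries below all irradiated myeloid ones (log2 difference -1.26 ± 0.09, adjusted p = 9.67e-08 by edgeR). CD11c+CD11b+ and CD11c-CD11b+ libraries overlapped and did not differ past the threshold (log2 difference -0.06 ± 0.10, adjusted p = 0.73 by edgeR). Unlike Timp2 and Mmp2, Adam8 was lowest in the untreated library of each of the 3 myeloid populations. Its exons overlap Gm16201 on the opposite strand.

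Adam17, the TNF-converting enzyme, varied little within a population. Adam17 was at 124, 121, 121 and 129.8 CPM in the irradiated CD8 T libraries and 254 CPM in the library labelled untreated CD8 T, and at 106, 97.8, 105 and 109 CPM in irradiated and 132 CPM in untreated CD11c+CD11b- libraries. For Adam17 the irradiated CD11c+CD11b+ libraries had 233, 216, 216 and 224 CPM and the untreated one 208 CPM, and the irradiated CD11c-CD11b+ libraries had 195, 207, 165 and 192 CPM and the untreated one 197 CPM. The CD11c+CD11b- libraries were all below the CD11c+CD11b+ ones (log2 difference -1.01 ± 0.08, adjusted p = 0.000102 by edgeR), and irradiated CD8 T cells were below the myeloid mean (log2 difference -0.41 ± 0.06, adjusted p = 5.22e-05 by edgeR). Its exons overlap Iah1 on the opposite strand. Adam10, which cuts Notch and many other receptors, behaved alike. Adam10 was at 177, 172, 152 and 179 CPM in the irradiated CD8 T libraries and 325 CPM in the library labelled untreated CD8 T, and at 137, 118, 155 and 141 CPM in irradiated and 169 CPM in untreated CD11c+CD11b- libraries. For Adam10 the irradiated CD11c+CD11b+ libraries had 258, 245, 268 and 279 CPM and the untreated one 259 CPM, and the irradiated CD11c-CD11b+ libraries had 219.9, 258, 192 and 239 CPM and the untreated one 219.5 CPM. CD11c+CD11b- libraries were lower than CD11c+CD11b+ libraries without overlap (log2 difference -0.88 ± 0.08, adjusted p = 0.000129 by edgeR). The difference of irradiated CD8 T cells from the myeloid mean was small (log2 difference -0.26 ± 0.08, adjusted p = 0.0175 by edgeR) and was lost without the RT, the RT with anti-SIRPa or the combined pool.

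Adam9 and Adam15, membrane-bound disintegrin proteases, had the largest shortfall of the abundant ADAMs in CD11c+CD11b- cells. Adam9 was at 68.4, 55.4, 76.9 and 81.2 CPM in the irradiated CD8 T libraries and 281 CPM in the library labelled untreated CD8 T, and at 51.7, 45.6, 68.5 and 67.04 CPM in irradiated and 123 CPM in untreated CD11c+CD11b- libraries. For Adam9 the irradiated CD11c+CD11b+ libraries had 266, 246, 243 and 228 CPM and the untreated one 198 CPM, and the irradiated CD11c-CD11b+ libraries had 224, 227, 182 and 211 CPM and the untreated one 196 CPM. CD11c+CD11b- libraries were lower without overlap (log2 difference -1.83 ± 0.25, adjusted p = 0.00103 by edgeR), and irradiated CD8 T cells were lower than the myeloid mean (log2 difference -1.05 ± 0.12, adjusted p = 5.65e-06 by edgeR). Adam15 was at 38.6, 26.9, 46.3 and 43.9 CPM in the irradiated CD8 T libraries and 201 CPM in the library labelled untreated CD8 T, and at 23.1, 17.7, 31.6 and 32.4 CPM in irradiated and 57.7 CPM in untreated CD11c+CD11b- libraries. For Adam15 the irradiated CD11c+CD11b+ libraries had 187, 148, 178 and 170.5 CPM and the untreated one 160.3 CPM, and the irradiated CD11c-CD11b+ libraries had 159, 154, 143 and 153 CPM and the untreated one 134 CPM. CD11c+CD11b- libraries again lay below all CD11c+CD11b+ libraries (log2 difference -2.49 ± 0.23, adjusted p = 0.000189 by edgeR), and irradiated CD8 T cells below the myeloid mean (log2 difference -1.20 ± 0.12, adjusted p = 2.80e-06 by edgeR). Adam15 overlaps 4731419I09Rik on the opposite strand. Between the CD11b+ fractions, none of Adam8, Adam9, Adam10, Adam15 and Adam17 passed.

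Adam19, meltrin beta, which cuts neuregulins, had the largest difference of the members that were higher in irradiated CD8 T than in myeloid cells. Adam19 was at 382, 387, 262 and 260.3 CPM in the irradiated CD8 T libraries and 57.2 CPM in the library labelled untreated CD8 T, and at 126, 171, 69.9 and 121 CPM in irradiated and 52.4 CPM in untreated CD11c+CD11b- libraries. For Adam19 the irradiated CD11c+CD11b+ libraries had 41.1, 39.6, 40.4 and 36.2 CPM and the untreated one 67.7 CPM, and the irradiated CD11c-CD11b+ libraries had 64.6, 73.7, 113 and 67.2 CPM and the untreated one 83.5 CPM. All irradiated CD8 T libraries lay above all irradiated myeloid ones (log2 difference 2.13 ± 0.18, adjusted p = 4.67e-07 by edgeR), and the library labelled untreated CD8 T did not share this level. Adam19 overlaps Gm16033 and Gm16034 on the opposite strand. It was also lower in CD11c+ than CD11c- cells of the CD11b+ fractions (log2 difference -0.86 ± 0.14, adjusted p = 0.00331 by edgeR). It was higher in CD11b- than CD11b+ cells of the CD11c+ fractions (log2 difference 1.19 ± 0.35, adjusted p = 0.0296 by edgeR), where the 8 CD8 T markers summed to 346 to 424 CPM in irradiated CD11c+CD11b- and 10.9 to 20.5 CPM in irradiated CD11c+CD11b+ libraries. In irradiated CD11c+CD11b- libraries Lck gave 197 to 267 CPM of that sum and Cd2 65.3 to 77.0 CPM. Each other marker of the sum gave at most 45.6 CPM. The 4 NK markers summed to 1479 to 2004 CPM there and to 33.2 to 67.5 CPM in irradiated CD11c+CD11b+ libraries. This call for Adam19 was lost when any one irradiated pool was left out, and the part of T or NK cells in it was not tested.

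Adam11 and Adam23 lack the residues of an active site and are known as binding partners of LGI proteins in neurons. Adam11 was at 1.18, 1.08, 2.04 and 2.56 CPM in the irradiated CD8 T libraries and 2.52 CPM in the library labelled untreated CD8 T, and at 69.8, 118, 26.7 and 69.7 CPM in irradiated and 8.13 CPM in untreated CD11c+CD11b- libraries. For Adam11 the irradiated CD11c+CD11b+ libraries had 7.79, 11.1, 2.79 and 4.98 CPM and the untreated one 6.07 CPM, and the irradiated CD11c-CD11b+ libraries had 0.379, 0.577, 0.789 and 0.968 CPM and the untreated one 1.39 CPM. Adam11 was higher in the CD11b- than in the CD11b+ part of the CD11c+ cells (log2 difference 2.88 ± 0.49, adjusted p = 0.0028 by edgeR), with overlap at the untreated library. It was higher in all CD11c+CD11b+ than in all CD11c-CD11b+ libraries (log2 difference 2.90 ± 0.41, adjusted p = 0.00152 by edgeR). Irradiated CD8 T libraries were below the myeloid mean (log2 difference -1.90 ± 0.40, adjusted p = 0.00123 by edgeR) but above the CD11c-CD11b+ libraries of their pools. Adam23 was at 0.250, 0.270, 0.499 and 0.707 CPM in the irradiated CD8 T libraries and 1.22 CPM in the library labelled untreated CD8 T, and at 26.8, 40.5, 14.1 and 31.2 CPM in irradiated and 6.44 CPM in untreated CD11c+CD11b- libraries. For Adam23 the irradiated CD11c+CD11b+ libraries had 6.16, 6.56, 2.17 and 7.37 CPM and the untreated one 7.14 CPM, and the irradiated CD11c-CD11b+ libraries had 0.341, 0.308, 0.591 and 0.542 CPM and the untreated one 0.905 CPM. Adam23 too was highest in CD11c+CD11b-, then in CD11c+CD11b+ cells among irradiated libraries, with a difference of 1.90 ± 0.42 (edgeR adjusted p = 0.0084) between CD11c+CD11b- and CD11c+CD11b+ cells and of 3.38 ± 0.35 (edgeR adjusted p = 0.000503) between CD11c+CD11b+ and CD11c-CD11b+ cells. Irradiated CD8 T cells had less of it than the myeloid mean (log2 difference -3.25 ± 0.37, adjusted p = 8.15e-06 by edgeR), and unlike Adam11 it was above the CD11c-CD11b+ library in 1 of the 4 irradiated pools. In CD11c+CD11b- cells both genes and Mmp25 had the same order over the 5 treatments: RT with anti-PD-1 above the rest, then RT alone and RT with both antibodies, then RT with anti-SIRPa, and the untreated library lowest, except that Adam11 was about level between RT alone and RT with both. Marker sums of these libraries stood in that order as well. In it, 4 plasmacytoid dendritic cell markers summed to 555, 398, 303, 114 and 24.1 CPM, and 3 mature dendritic cell markers to 1394, 1232, 1037, 614 and 352 CPM. The part of either in the members' levels was not tested.

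**Figure D3:**
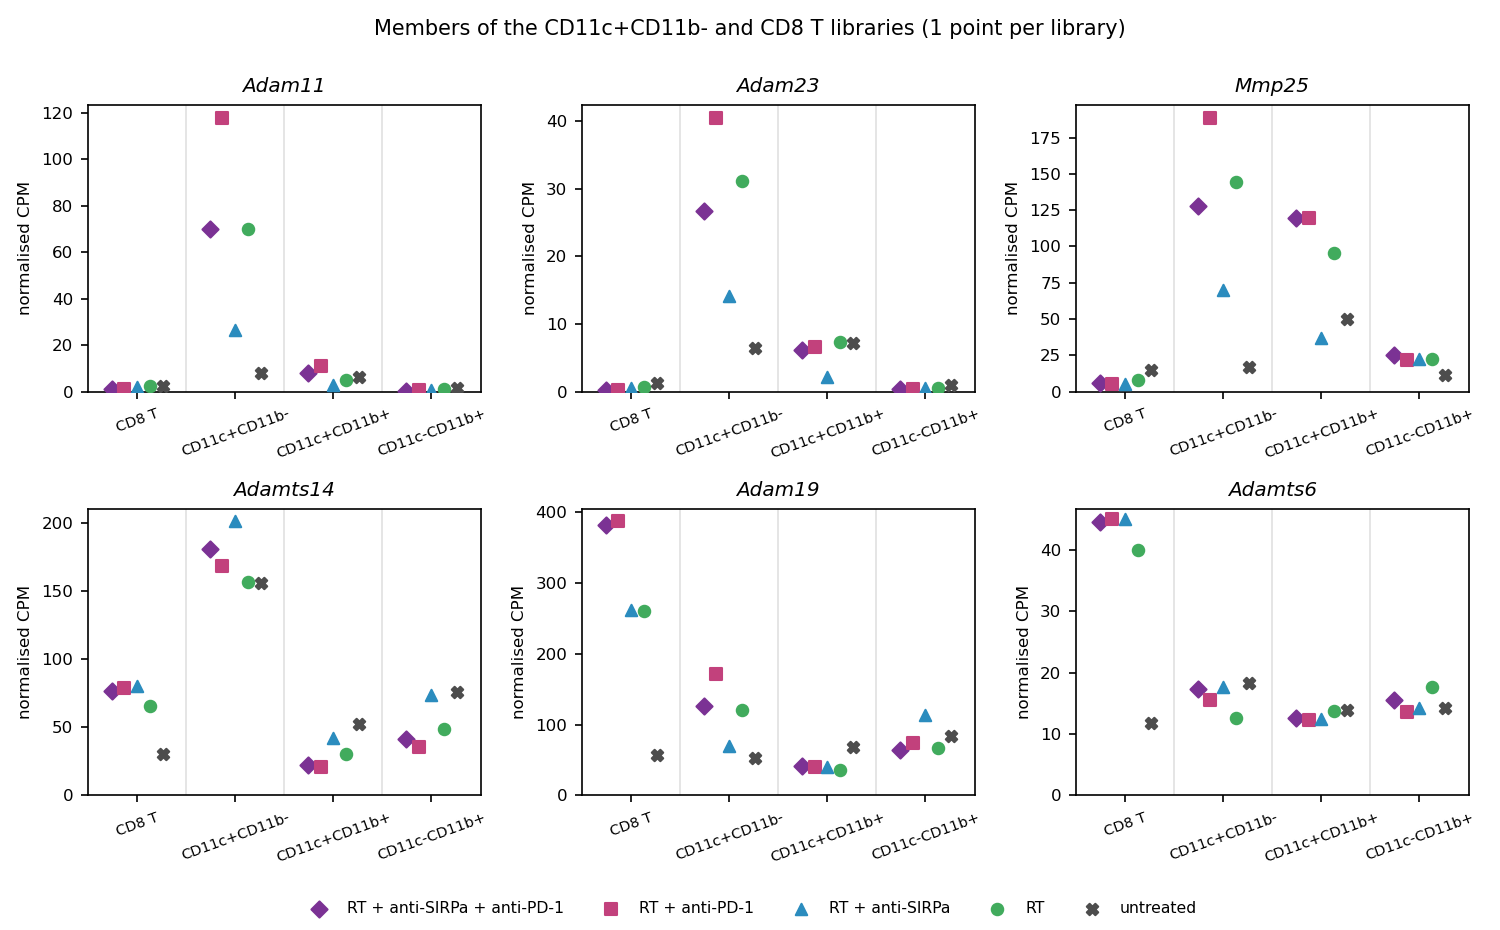
Normalised CPM (y axes, from 0) of Adam11, Adam23, Mmp25, Adamts14, Adam19 and Adamts6 by population (x axes), 1 point per library coloured by treatment. Adam11 and Adam23 are highest in irradiated CD11c+CD11b- libraries and near the axis in CD8 T and CD11c-CD11b+ libraries, and Adam19 and Adamts6 separate the irradiated CD8 T libraries from all others.

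Among the ADAMTSs, Adamts1 cuts versican and aggrecan. Adamts1 was at 14.8, 8.47, 35.1 and 23.3 CPM in the irradiated CD8 T libraries and 75.2 CPM in the library labelled untreated CD8 T, and at 19.1, 9.78, 46.1 and 24.9 CPM in irradiated and 221 CPM in untreated CD11c+CD11b- libraries. For Adamts1 the irradiated CD11c+CD11b+ libraries had 24.3, 15.3, 53.4 and 31.3 CPM and the untreated one 149 CPM, and the irradiated CD11c-CD11b+ libraries had 39.1, 32.8, 91.9 and 53.5 CPM and the untreated one 197 CPM. The untreated library was the highest of each myeloid population, and RT with anti-SIRPa was the highest irradiated library in all 4 populations. Adamts1 was lower in CD11c+ than CD11c- cells of the CD11b+ fractions (log2 difference -0.75 ± 0.09, adjusted p = 0.000857 by edgeR) and in irradiated CD8 T than in myeloid cells (log2 difference -0.81 ± 0.10, adjusted p = 1.58e-05 by edgeR), both within pools and with overlapping groups. Adamts4, an aggrecanase, was lower in level. Adamts4 was at 6.11, 5.51, 13.02 and 11.2 CPM in the irradiated CD8 T libraries and 12.6 CPM in the library labelled untreated CD8 T, and at 5.21, 3.26, 16.7 and 11.5 CPM in irradiated and 28.1 CPM in untreated CD11c+CD11b- libraries. For Adamts4 the irradiated CD11c+CD11b+ libraries had 11.9, 7.66, 20.1 and 16.1 CPM and the untreated one 26.5 CPM, and the irradiated CD11c-CD11b+ libraries had 16.3, 16.5, 32.8 and 24.7 CPM and the untreated one 34.6 CPM. A lower level was found in CD11c+ than CD11c- cells of the CD11b+ fractions (log2 difference -0.66 ± 0.11, adjusted p = 0.00286 by edgeR). Irradiated CD8 T cells were below the myeloid mean (log2 difference -0.66 ± 0.16, adjusted p = 0.00293 by edgeR), though above the CD11c+CD11b- library in both pools with anti-PD-1. Its exons overlap another gene on the opposite strand.

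Adamts9, a further versican-cutting enzyme, ran with Adamts1. Adamts9 was at 4.71, 2.12, 6.53 and 4.07 CPM in the irradiated CD8 T libraries and 12.7 CPM in the library labelled untreated CD8 T, and at 3.17, 2.97, 9.51 and 5.07 CPM in irradiated and 38.4 CPM in untreated CD11c+CD11b- libraries. For Adamts9 the irradiated CD11c+CD11b+ libraries had 5.11, 3.14, 10.8 and 6.41 CPM and the untreated one 24.8 CPM, and the irradiated CD11c-CD11b+ libraries had 8.90, 6.35, 17.5 and 11.9 CPM and the untreated one 36.8 CPM. It was lower in CD11c+ than CD11c- cells of the CD11b+ fractions (log2 difference -0.80 ± 0.10, adjusted p = 0.000849 by edgeR). Irradiated CD8 T cells were below the myeloid mean (log2 difference -0.69 ± 0.14, adjusted p = 0.000927 by edgeR), though above the CD11c+CD11b- library in the combined pool. Adamts7, known to cut cartilage oligomeric matrix protein, varied less. Adamts7 was at 9.82, 7.28, 12.1 and 9.46 CPM in the irradiated CD8 T libraries and 12.1 CPM in the library labelled untreated CD8 T, and at 11.4, 10.95, 16.6 and 9.66 CPM in irradiated and 23.3 CPM in untreated CD11c+CD11b- libraries. For Adamts7 the irradiated CD11c+CD11b+ libraries had 11.9, 11.1, 15.4 and 9.36 CPM and the untreated one 19.1 CPM, and the irradiated CD11c-CD11b+ libraries had 17.1, 15.2, 26.6 and 17.5 CPM and the untreated one 27.95 CPM. Its differences were -0.66 ± 0.09 (edgeR adjusted p = 0.0015) between CD11c+CD11b+ and CD11c-CD11b+ cells and -0.54 ± 0.09 (edgeR adjusted p = 0.000239) between irradiated CD8 T and myeloid cells. Adamts7 overlaps Tbc1d2b and Adamts9 overlaps Gm15737 and A730049H05Rik, all on the opposite strand. Adamts5 (at most 15.2 CPM) and Adamts12 (at most 11.6 CPM) were also lower in CD11c+ than CD11c- cells of the CD11b+ fractions (-0.77 and -0.79 log2), the first not without the RT or the RT with anti-PD-1 pool. Adamts5 was lower in irradiated CD8 T than in myeloid cells too (-1.08 log2).

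Adamts14, which with Adamts2 and Adamts3 trims the amino-terminal propeptide of fibrillar procollagens, marked the CD11c+CD11b- libraries. Adamts14 was at 76.6, 78.6, 80.3 and 65.4 CPM in the irradiated CD8 T libraries and 30.8 CPM in the library labelled untreated CD8 T, and at 181, 168, 202 and 157 CPM in irradiated and 156 CPM in untreated CD11c+CD11b- libraries. For Adamts14 the irradiated CD11c+CD11b+ libraries had 22.7, 20.9, 41.9 and 30.5 CPM and the untreated one 52.8 CPM, and the irradiated CD11c-CD11b+ libraries had 41.6, 35.7, 73.8 and 49.02 CPM and the untreated one 75.7 CPM. All 5 CD11c+CD11b- libraries were above all CD11c+CD11b+ libraries (log2 difference 2.43 ± 0.22, adjusted p = 0.000181 by edgeR), with little difference between treatments. Within pools it was lower in CD11c+ than CD11c- cells of the CD11b+ fractions (log2 difference -0.74 ± 0.07, adjusted p = 0.000326 by edgeR). The 12 fibroblast markers of the untreated libraries summed to 8721 CPM in CD11c+CD11b- and 8933 CPM in CD11c-CD11b+ cells, and Adamts14 in those was at 156 and 75.7 CPM. In the same order the 4 NK markers summed to 1051 and 12.7 CPM and the 12 macrophage markers to 1213 and 5811 CPM. Each is 1 library, and the part of any cell type in the level of Adamts14 was not tested.

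Adamts10 and Adamts6, which act on fibrillin microfibrils and are close relatives of each other, were both higher in irradiated CD8 T cells than in the myeloid mean. Adamts10 was at 60.8, 57.8, 56.1 and 47.6 CPM in the irradiated CD8 T libraries and 30.97 CPM in the library labelled untreated CD8 T, and at 68.2, 66.4, 61.4 and 57.4 CPM in irradiated and 61.5 CPM in untreated CD11c+CD11b- libraries. For Adamts10 the irradiated CD11c+CD11b+ libraries had 25.5, 26.7, 26.9 and 23.7 CPM and the untreated one 33.5 CPM, and the irradiated CD11c-CD11b+ libraries had 27.3, 26.6, 25.7 and 22.4 CPM and the untreated one 23.7 CPM. Adamts10 was higher in all CD11c+CD11b- than in all CD11c+CD11b+ libraries (log2 difference 1.21 ± 0.09, adjusted p = 7.53e-05 by edgeR). It was also higher in irradiated CD8 T cells than in the myeloid mean (log2 difference 0.67 ± 0.05, adjusted p = 2.14e-07 by edgeR). In every irradiated pool, however, the CD8 T library lay below the CD11c+CD11b- library for Adamts10. Adamts6 was at 44.5, 45.03, 44.96 and 39.97 CPM in the irradiated CD8 T libraries and 11.8 CPM in the library labelled untreated CD8 T, and at 17.3, 15.6, 17.6 and 12.6 CPM in irradiated and 18.4 CPM in untreated CD11c+CD11b- libraries. For Adamts6 the irradiated CD11c+CD11b+ libraries had 12.6, 12.3, 12.4 and 13.7 CPM and the untreated one 13.96 CPM, and the irradiated CD11c-CD11b+ libraries had 15.5, 13.5, 14.3 and 17.7 CPM and the untreated one 14.3 CPM. Adamts6 was higher in every irradiated CD8 T library than in every irradiated myeloid one (log2 difference 1.58 ± 0.08, adjusted p = 6.28e-09 by edgeR), and no difference passed in either comparison of myeloid populations.

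Of the 17 members that peaked between 1 and 20 CPM, those not yet named stayed low throughout. Mmp24 and Mmp28 peaked at 6.23 and 5.46 CPM, Mmp23 and Mmp27 at 2.48 and 3.62 CPM. Adam30 reached 7.20 CPM in CD11c-CD11b+ cells and was lower in irradiated CD8 T than in myeloid cells at the edge of the threshold (log2 difference -0.91 ± 0.36, adjusted p = 0.0497 by edgeR), a call lost without the RT, the RT with anti-PD-1 or the combined pool. Adam1a reached 8.72 CPM in 1 library, CD11c+CD11b+ cells of the RT with anti-PD-1 pool, and at most 2.41 CPM in the 19 others; it shares exon sequence with Mapkapk5 on the same strand, so its reads are uncertain. Adam4, Adam12, Adam22, Adam33, Adamts2 and Adamts15 peaked at 1.57 to 4.46 CPM, and Adamts8 at 8.24 CPM in the untreated CD11c-CD11b+ library. The passing members under 5 CPM were Adam30 and Adam33 between the CD11c+ fractions, Adam12 and Adamts2 between the CD11b+ fractions, and Adam3, Adam12, Adam33, Adamts2, Adamts13 and Mmp27 for CD8 T against myeloid cells. All of them were lower, and for Adam3 and Adamts13, at 0 counts in the irradiated CD8 T libraries and under 1 CPM everywhere, no fold is given.

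Irradiation was examined within each myeloid population as the 4 irradiated pools against the 1 untreated pool. Of the members at 20 CPM or more, Timp2, Mmp2, Mmp3, Mmp11, Mmp16, Adamts1, Adamts4, Adamts7 and Adamts9 were below the untreated library in every irradiated library of all 3 populations. The 3 untreated libraries share 1 pool, and how many of all genes did the same was not counted. No member passed edgeR's test. Of 51 members tested in CD11c+CD11b- cells 0 passed, beside 0.019% of all genes, with 23 at an unadjusted p under 0.05 and 18 called by DESeq2. Of 51 in CD11c+CD11b+ cells 0 passed, beside 0.343% of all genes, with 16 at an unadjusted p under 0.05 and 7 by DESeq2. Of 52 in CD11c-CD11b+ cells 0 passed, beside 0.0047% of all genes, with 16 and 7. The share of all genes at an unadjusted p under 0.05 is not given, here or below. Counts at that p therefore cannot be read as a result about the members. The median log2 differences of the members were -0.70, -0.25 and -0.18 in CD11c+CD11b-, then CD11c+CD11b+, then CD11c-CD11b+ cells, against 0.03, 0.02 and 0.02 over all genes. Adamts1 had differences of -3.23 ± 0.59 (edgeR adjusted p = 0.0858), -2.27 ± 0.49 (edgeR adjusted p = 0.106) and -1.89 ± 0.46 (edgeR adjusted p = 0.173) in that order. Mmp2 had differences of -2.88 ± 0.48 (edgeR adjusted p = 0.0822), -1.64 ± 0.25 (edgeR adjusted p = 0.0554) and -1.50 ± 0.31 (edgeR adjusted p = 0.173). In the other direction stood Adam8, at 1.26 ± 0.21 (edgeR adjusted p = 0.0835) in CD11c+CD11b- and 1.08 ± 0.33 (edgeR adjusted p = 0.197) in CD11c-CD11b+ cells, and Mmp25, at 2.92 ± 0.59 (edgeR adjusted p = 0.087) in CD11c+CD11b- and 0.99 ± 0.19 (edgeR adjusted p = 0.173) in CD11c-CD11b+ cells. The 12 fibroblast markers had medians of -2.36, -1.45 and -1.26 in these comparisons, and their part in the members' values was not tested. With terms for the antibodies in the model 26, 18 and 12 members passed, and without the RT with anti-SIRPa pool 20, 14 and 15. Of all genes, the antibody terms called 20.9%, 16.1% and 9.27%, the fit without the RT with anti-SIRPa pool 14.7%, 7.66% and 16.1%, and DESeq2 12.8%, 5.94% and 6.19%, in the same order of populations.

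Whether irradiation acted alike in 2 populations was tested by interaction terms. The irradiated minus untreated difference was larger in CD11b- than CD11b+ cells of the CD11c+ fractions for Adam11 (difference of log2 differences 3.01 ± 0.27 (edgeR adjusted p = 0.00955)), Adam23 (2.54 ± 0.30 (edgeR adjusted p = 0.0216)) and Mmp25 (2.19 ± 0.29 (edgeR adjusted p = 0.0292)). These 3 of 45 members passed, beside 1.37% of all genes. Of the 3 mature dendritic cell markers 2 passed the same interaction (Ccl22 and Ccr7), as did 2 of 4 plasmacytoid dendritic cell markers (Ccr9 and Siglech), and their part was not tested. Between CD11c-CD11b+ and CD11c+CD11b+ cells 0 of 47 passed edgeR, beside 0.388% of all genes, with 8 at an unadjusted p under 0.05 and 2 called by DESeq2. No member passed the first interaction without the filter on low counts, and Mmp25 did not pass without the RT or the RT with anti-PD-1 pool, nor Adam23 without the combined pool.

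Anti-PD-1 was examined within the irradiated pools as the 2 pools with the antibody against the 2 without it, with a term for anti-SIRPa. Timp2, Mmp9, Adamts1 and Adamts4 fell in CD8 T and both CD11c+ populations of tumours given anti-PD-1. These populations came from the same pools, so their falls are not independent of each other. Of 45 members tested in CD8 T cells 1 rose and 7 fell, beside 2.69% and 4.28% of all genes. Of 47 in CD11c+CD11b- cells 3 rose and 9 fell, beside 1.22% and 2.89%. Of 47 in CD11c+CD11b+ cells 5 rose and 8 fell, beside 1.92% and 4.74%. Of 48 in CD11c-CD11b+ cells 0 passed edgeR, as did 0% of all genes, with 15 members at an unadjusted p under 0.05 and 3 called by DESeq2. The medians of the members tested were -0.35, -0.03, -0.03 and -0.06 in CD8 T, then CD11c+CD11b-, then CD11c+CD11b+, then CD11c-CD11b+ cells, against 0.01, 0.01, 0.00 and 0.02 over all genes. These tests had 1 residual degree of freedom, the departure of the irradiated pools from additive effects of the antibodies. That is not a spread between pools of like treatment. No member passed in any of the 3 populations without the anti-SIRPa term or without the filter on low counts. DESeq2 called 8, 11 and 12, beside 4.52%, 4.62% and 5.39% of all genes.

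Of these, Timp2 fell by 1.04 on the log2 scale in CD8 T cells (edgeR adjusted p = 0.00143), by 1.09 in CD11c+CD11b- cells (edgeR adjusted p = 0.00978) and by 0.68 in CD11c+CD11b+ cells (edgeR adjusted p = 0.00929). Adamts1 had differences of -1.34 ± 0.14 (edgeR adjusted p = 0.00334), -1.27 ± 0.12 (edgeR adjusted p = 0.0104) and -1.06 ± 0.11 (edgeR adjusted p = 0.00764) in the same order, and Adamts4 of -1.05, -1.71 and -0.88. Mmp9 had differences of -0.89, -1.06 and -0.85. Mmp2 and Mmp14 fell in CD8 T (-0.85 and -0.85) and CD11c+CD11b- libraries (-1.06 and -1.16). In CD11c+CD11b- libraries Mmp3 (-1.04), Mmp11 (-1.31, under 5 CPM in all but 1 library) and Timp1 (-1.23) fell as well. In CD11c+CD11b+ libraries Mmp11 (-1.20), Mmp16 (-1.0), Adamts9 (-1.02) and Adamts14 (-0.69) did so, and Mmp16 fell in CD8 T cells from a low level (-1.65). In none of these did the 2 pools with anti-PD-1 overlap the 2 without it. Since these members were chosen by a test on the same values, that adds no support to the calls. The same holds for the rises below, and how many of all genes had no overlap was not counted.

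Beside these falls, of 12 fibroblast markers 8 fell in CD8 T, 8 in CD11c+CD11b- and 9 in CD11c+CD11b+ cells in the same comparison and none rose, with medians of -1.01, -1.37 and -0.76. In CD11c-CD11b+ cells 0 passed, with a median of -0.59. Of 12 macrophage markers 10 fell in CD8 T and 3 in CD11c+CD11b- libraries, where Mmp14 fell, and 0 changed in CD11c+CD11b+ libraries. The part of either cell type in the members' changes was not tested.

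**Figure D4:**
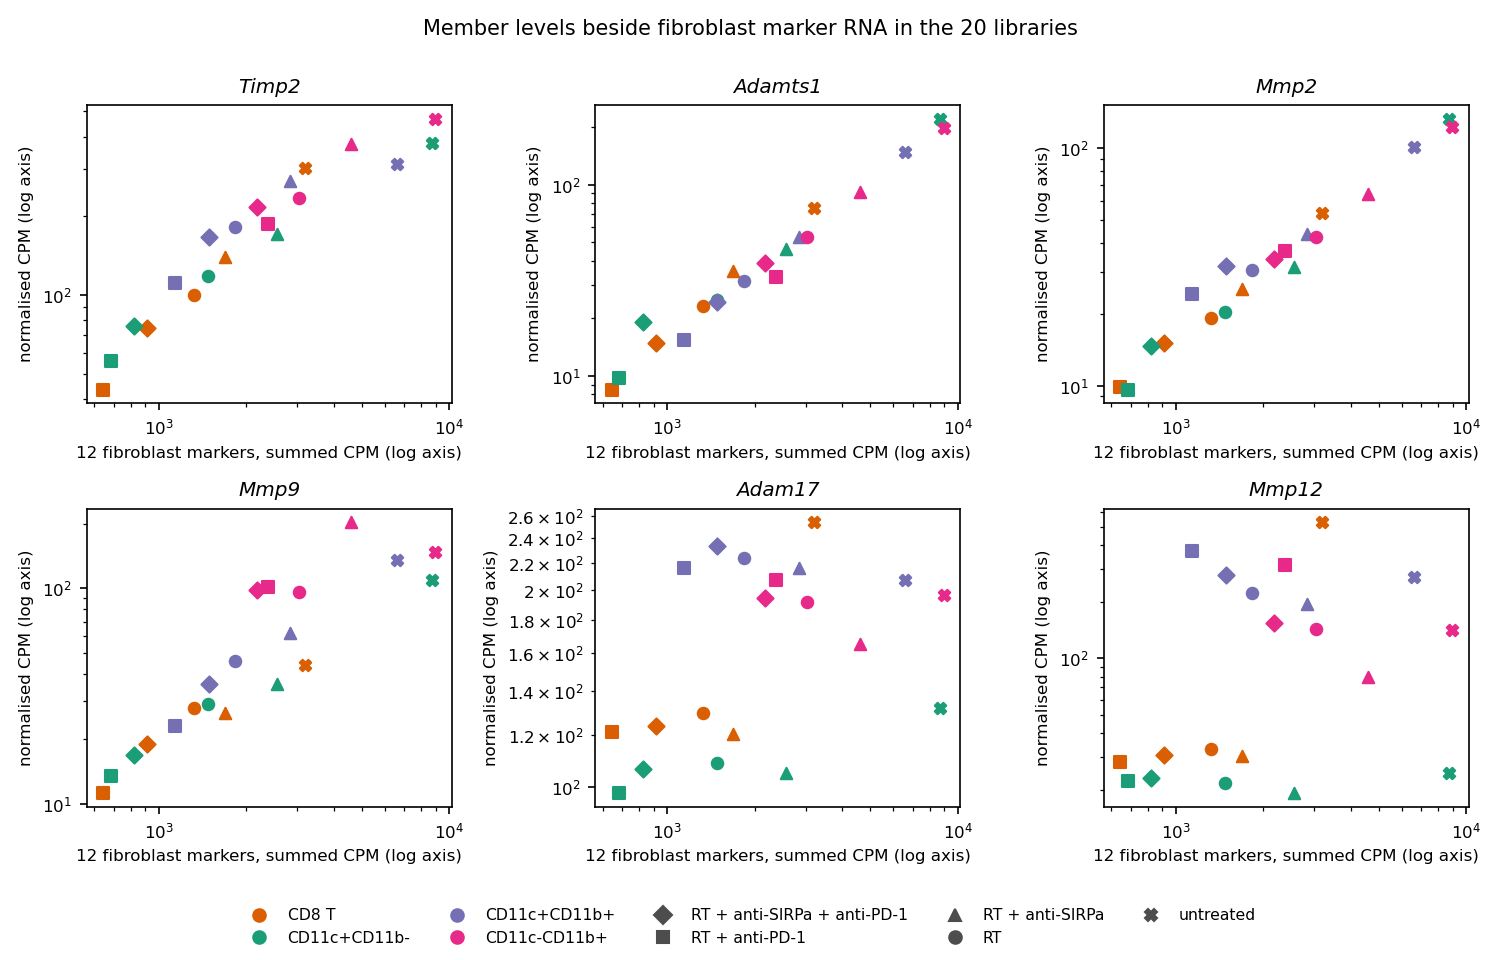
Normalised CPM of Timp2, Adamts1, Mmp2, Mmp9, Adam17 and Mmp12 (y axes, log) beside the summed CPM of 12 fibroblast markers (x axes, log), 1 point per library, coloured by population and shaped by treatment. Timp2, Adamts1 and Mmp2 are high where the fibroblast sum is high in all 4 populations, and Adam17 and Mmp12 divide by population. The libraries of a pool share their tumours.

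Other members rose with anti-PD-1. Adam19 rose in CD8 T cells (log2 difference 0.56 ± 0.07, adjusted p = 0.00712 by edgeR) and in CD11c+CD11b- cells (log2 difference 0.71 ± 0.11, adjusted p = 0.0292 by edgeR), and the 2 pools with the antibody were above the 2 without it in both. All 8 CD8 T markers rose in the CD8 T libraries in the same comparison (median 0.55), and 0 of 8 passed in CD11c+CD11b- cells (median 0.09). Adam11 rose in CD11c+CD11b- (log2 difference 1.10 ± 0.15, adjusted p = 0.0233 by edgeR) and CD11c+CD11b+ cells (log2 difference 1.35 ± 0.21, adjusted p = 0.0156 by edgeR), in the first with the combined pool at 69.8 and the RT pool at 69.7 CPM, hardly apart. Mmp25 rose in CD11c+CD11b- cells (log2 difference 0.66 ± 0.13, adjusted p = 0.0472 by edgeR), although the groups overlapped. In the same comparison in CD11c+CD11b- cells, the 4 plasmacytoid dendritic cell markers had a median of 0.97 with Ccr9 called higher, and the 3 mature dendritic cell markers a median of 0.49 with Fscn1 called higher. In CD11c+CD11b+ cells the medians were 0.13 for the plasmacytoid markers, with Ccr9 called higher, and 1.01 for the mature ones, with none called. The part of T cells and dendritic cells in these rises was not tested. In CD11c+CD11b+ cells Mmp12 (log2 difference 0.66 ± 0.10, adjusted p = 0.015 by edgeR), Mmp13 (log2 difference 0.62 ± 0.10, adjusted p = 0.0188 by edgeR), Mmp19 (log2 difference 0.49 ± 0.09, adjusted p = 0.0268 by edgeR) and Adam8 (log2 difference 0.48 ± 0.10, adjusted p = 0.0383 by edgeR) rose with no overlap of the groups. In CD11c-CD11b+ cells Mmp12 and Mmp13 had larger differences that did not pass (1.07 ± 0.13 (edgeR adjusted p = 0.138) and 1.14 ± 0.13 (edgeR adjusted p = 0.138)); DESeq2 called both, and Adamts1.

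**Figure D5:**
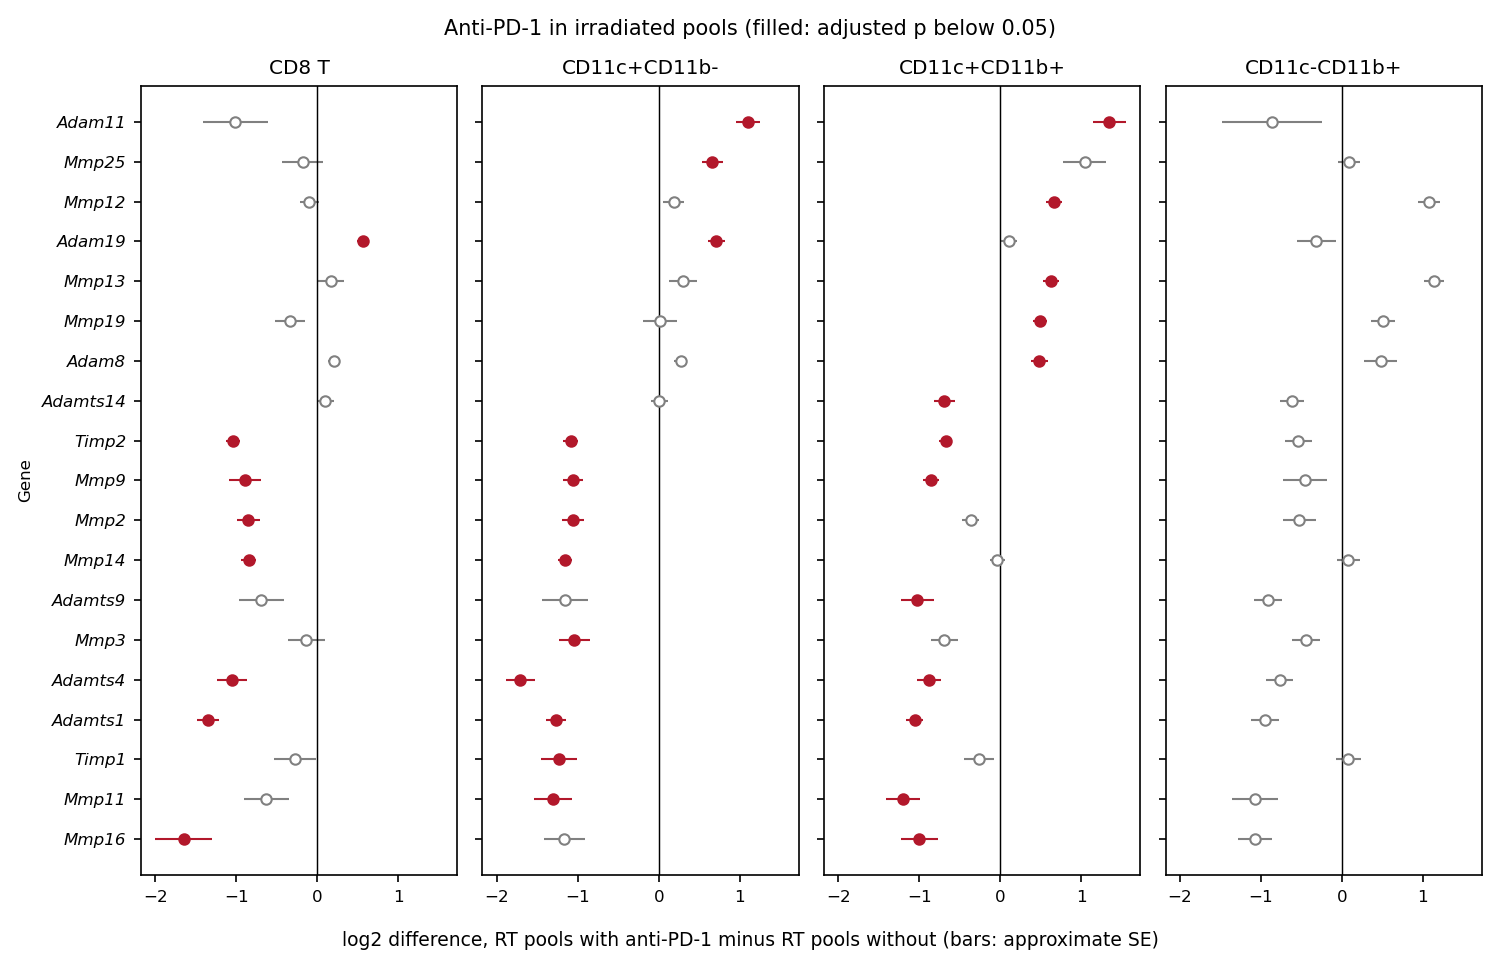
Log2 difference between irradiated pools with and without anti-PD-1 (x axes, bars are approximate standard errors) for the 19 members that passed in at least 1 population (rows), 1 panel per population. Filled red points passed edgeR at an adjusted p under 0.05 and open grey ones did not; Timp2, Mmp9, Adamts1 and Adamts4 lie left of 0 in all 4 panels, and none is filled in CD11c-CD11b+ cells.

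The interaction with population passed for 1 of 47 members, Mmp14, whose difference with anti-PD-1 was lower in CD11b- than CD11b+ cells of the CD11c+ fractions (log2 difference -1.11 ± 0.09, adjusted p = 0.0407 by edgeR), beside 0.0906% of all genes. In CD11c+CD11b+ cells Mmp14 itself differed by -0.04 ± 0.09 (edgeR adjusted p = 0.845). The interaction did not pass without the filter on low counts, and the fit has 1 residual degree of freedom. Between CD11c-CD11b+ and CD11c+CD11b+ cells 0 of 47 members passed edgeR, beside 0.0265% of all genes, with 6 at an unadjusted p under 0.05 and 0 by DESeq2. A difference between the CD11b+ fractions in their response to anti-PD-1 was therefore not shown.

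Anti-SIRPa, compared in the same way, changed no member by edgeR. It gave 0 of 45 members in CD8 T, beside 0.101% of all genes, 0 of 47 in CD11c+CD11b- beside 0.00523%, 0 of 47 in CD11c+CD11b+ beside 0.156% and 0 of 48 in CD11c-CD11b+ cells beside 0%. At an unadjusted p under 0.05 stood 10, 15, 11 and 8 members in that order, and DESeq2 called 1, 6, 2 and 2, beside 0.24%, 1.43%, 0.584% and 0.0668% of all genes. Timp2 had differences of 0.61 ± 0.09 (edgeR adjusted p = 0.0719), 0.50 ± 0.09 (edgeR adjusted p = 0.131), 0.56 ± 0.08 (edgeR adjusted p = 0.079) and 0.45 ± 0.17 (edgeR adjusted p = 0.962), all above 0, as the fibroblast marker medians were.

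The other genes of the pathway were 27 activators and modulators of these enzymes: furin-type convertases that remove the prodomain, the plasminogen activator system, and partners of ADAM10 and ADAM17. Their median log2 difference was -0.46 between the CD11c+ fractions, -0.45 between the CD11b+ fractions and -0.88 for CD8 T against myeloid cells, beside the medians of all genes given above. Of 24 tested between the CD11c+ fractions, 2 were higher and 12 lower, beside 23.1% and 22.3% of all genes. Furin, the main convertase, differed by -1.70 ± 0.09 (edgeR adjusted p = 1.76e-05), Rhbdf2, which escorts ADAM17 to the cell surface, by -1.39 ± 0.10 (edgeR adjusted p = 6.97e-05), and Plau, the urokinase, by -2.15 ± 0.15 (edgeR adjusted p = 5.69e-05). The 2 higher ones were Reck, a membrane-bound MMP inhibitor (1.56 ± 0.23 (edgeR adjusted p = 0.00147)), and Serpine2, a serine protease inhibitor (3.52 ± 0.35 (edgeR adjusted p = 0.000239)). Of 24 tested between the CD11b+ fractions, 2 were higher (Tspan33 and Plau) and 10 lower, beside 12% and 12.9% of all genes, the lower ones including the urokinase receptor Plaur (-0.63 ± 0.20 (edgeR adjusted p = 0.0496)). Of 25 tested between CD8 T and myeloid cells, 2 were higher and 15 lower, beside 25.1% and 26.1% of all genes, with Lrp1, the endocytic receptor that clears MMPs and their inhibitors, at -1.46 ± 0.22 (edgeR adjusted p = 7.97e-05). With anti-PD-1, 1 rose and 7 fell of 23 in CD8 T cells, 0 rose and 4 fell of 24 in CD11c+CD11b- cells, and 2 rose and 3 fell of 24 in CD11c+CD11b+ cells, beside the shares of all genes given with the anti-PD-1 counts above. Plat, the tissue plasminogen activator, fell in all 3, with differences of -0.93 ± 0.18 (edgeR adjusted p = 0.0281) in CD8 T, -0.81 ± 0.13 (edgeR adjusted p = 0.0346) in CD11c+CD11b- and -0.71 ± 0.11 (edgeR adjusted p = 0.0158) in CD11c+CD11b+ cells. Lrp1 fell in CD11c+CD11b- (-0.62 ± 0.08 (edgeR adjusted p = 0.0226)) and rose in CD11c+CD11b+ cells (0.58 ± 0.12 (edgeR adjusted p = 0.0327)), and this difference between the populations passed its own test (-1.18 ± 0.10 (edgeR adjusted p = 0.0477)). None of the list passed for irradiation in any of the 3 myeloid populations, nor for anti-SIRPa in any population.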

How the data were processed

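RNA of 4 sorted populations from tumours under 5 treatments was sequenced, with 1 library per group. The deposited transcript table holds estimated counts that are whole numbers, made by the authors with HISAT2, StringTie and edgeR 3.34.0 after FastQC 0.11.8 on GRCm38, per the submitters' processing notes, which give no role or order of these tools. Counts of 141469 of 142699 transcripts were summed to 55260 genes by GENCODE M21, and the unmatched ones held at most 0.399% of a library. How the authors' counting treated overlapping genes is not given in the sources used here, so values of overlapping genes are uncertain.

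CPM were scaled by TMM, and per-length values (TPM) were computed from the transcript counts. Differences were tested with edgeR 4.0.16 (quasi-likelihood, R 4.3.3) on genes passing filterByExpr (minimum count 10), with Benjamini-Hochberg adjustment over all genes tested and a threshold of 0.05. The scripts were tested on simulated data. Population comparisons had the pool as a term, irradiation compared 4 pools with 1, and each antibody comparison had a term for the other antibody. The library labelled untreated CD8 T entered no test except an alternative fit of CD8 T against myeloid cells over all 5 pools. DESeq2 1.42.0, RLE scaling, no filter, other model terms and leaving out pools were alternatives. Members at 20 CPM or more in 1 library are given in every library, and passing members at 5 CPM or more in 2 libraries of a comparison are named. Members and lists were chosen with earlier results of these data known. Promoters were RefSeq's (GRCm38.p6). The pool term pairs the populations of a treatment. Treatments could not be paired, since each is 1 pool and the labels give no replicate numbers. Some further genes, among them ones of the symbol pattern that defines the members, are not reported here.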

Additional observations from a re-analysis of the deposited data

Results flagged for a closer look

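For 3 members the difference between irradiated and untreated cells was larger in CD11c+CD11b- than CD11c+CD11b+ cells by a test of that difference itself. It was larger by 3.01 ± 0.27 (edgeR adjusted p = 0.00955) on the log2 scale for Adam11, by 2.54 ± 0.30 (edgeR adjusted p = 0.0216) for Adam23 and by 2.19 ± 0.29 (edgeR adjusted p = 0.0292) for Mmp25. Each rests on 1 untreated library per population, and none passed without the filter on low counts.

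Mmp14 differed in its response to anti-PD-1 between the same populations, by -1.11 ± 0.09 (edgeR adjusted p = 0.0407) on the log2 scale, with -1.16 in CD11c+CD11b- cells and -0.04 in CD11c+CD11b+ cells. It did not pass without the filter on low counts. Of 12 macrophage markers 3 fell with anti-PD-1 in CD11c+CD11b- and 0 in CD11c+CD11b+ cells. Of 12 fibroblast markers 8 fell in CD11c+CD11b- (median -1.37) and 9 in CD11c+CD11b+ cells (median -0.76). The part of either cell type was not tested.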

How the results depend on the processing

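Leaving out 1 pool gave 16 to 28 members between the CD11c+ fractions, beside 35.9% to 50.8% of all genes. Between the CD11b+ fractions it gave 21 to 27, beside 15.2% to 25.7%. For CD8 T against myeloid cells it gave 30 to 32, beside 41.5% to 50.8%. Without the pool term 5 passed between the CD11b+ fractions, beside 5.07% of all genes. A fit of CD8 T against myeloid cells over all 5 pools took in the library labelled untreated CD8 T. There 22 named members stayed on their side of the threshold and 8 did not, and 35.5% of all genes passed. For irradiation, leaving out 1 irradiated pool gave 0 to 20 members in CD11c+CD11b-, 0 to 14 in CD11c+CD11b+ and 0 to 15 in CD11c-CD11b+ cells, with every count above 0 coming from the fit without RT with anti-SIRPa (14.7%, 7.66% and 16.1% of all genes). DESeq2 gave 18, 7 and 7 in that order (12.8%, 5.94% and 6.19% of all genes), and antibody terms 26, 18 and 12 (20.9%, 16.1% and 9.27% of all genes). For anti-PD-1, 0 members passed in CD8 T and in both CD11c+ populations without the filter on low counts, and 0 without the anti-SIRPa term, where at most 0.0426% of all genes passed. DESeq2 called 3 in CD11c-CD11b+ cells, beside 2.67% of all genes. For anti-SIRPa, DESeq2 called 1 in CD8 T, 6 in CD11c+CD11b-, 2 in CD11c+CD11b+ and 2 in CD11c-CD11b+ cells (0.24%, 1.43%, 0.584% and 0.0668% of all genes). A filter with all libraries as 1 group, chosen after seeing the data, gave 1 in CD8 T and 4 in CD11c+CD11b- cells for anti-SIRPa, and 1 in CD11c+CD11b+ cells for irradiation (0.17%, 0.873% and 0.888% of all genes). The interaction of irradiation with the CD11c+ fractions gave 12 by DESeq2 (beside 5.99% of all genes) and 0 without the filter. It gave 2 to 10 leaving out 1 irradiated pool, beside 0.202% to 4.49% of all genes (chosen after seeing the data). For CD11c-CD11b+ against CD11c+CD11b+ cells DESeq2 gave 2 (1.96% of all genes) and leaving out 1 pool gave 0 each time. The interaction with anti-PD-1 gave 0 without the filter. The cause was not tested for any of these. No named member reversed its direction: of the values under an alternative, 660 stayed on their side of the threshold and 149 did not. Leaving out a pool in an antibody comparison leaves no residual degree of freedom and was not run. Without the filter the median of all genes moved by up to 0.14 (log2).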
